A study of Mus musculus with 6 samples.

Results

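The Rab small GTPases were described here in preSC, a mouse cell line that the labels describe as precursors of small cell lung cancer (SCLC), over 6 libraries. The genes were taken by name, as every symbol made of Rab, a number and optional lower-case letters, leaving out interacting proteins and GTPase-activating proteins named after a Rab. This gave 58 of the 23284 genes in the count files. Of these, 57 encode Rab GTPases. The remaining symbol, Rab3il1, fits the pattern but encodes an exchange factor for Rab proteins, and it was left out of the counts of Rab genes below. The pseudogene Rab42-ps is outside the pattern.

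All libraries came from cells transduced with the lentiviral vector pLKO.1. Control replicates 1 and 2 carried the vector without an insert (shEmpty), and control replicate 3 carried a non-silencing shRNA (shNS). The knockdown group held 1 library for each of 3 hairpins against Crebbp, the gene of the acetyltransferase CREB-binding protein, numbered 1, 2 and 5. Whether libraries came from separate cultures is not stated in the labels, so p-values measure only the spread between these libraries, which may be technical, and between hairpins. The comparison asks which genes differ when Crebbp is targeted in these cells.

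Rab proteins are membrane switches. Bound to GTP they sit on the membrane of one compartment and recruit effectors such as tethers, coiled-coil adaptors and motor proteins. Exchange factors load them with GTP, GTPase-activating proteins turn them off, and carrier proteins take them back through the cytosol. Each compartment of the secretory and endocytic routes has its own Rab members. Neuroendocrine cells use the Rab3 and Rab27 members to dock and release dense-core vesicles, and epithelial cells use Rab25, Rab17 and Rab11 members to recycle proteins to the apical surface.

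The libraries held 13622020 to 19804949 reads in genes. Crebbp itself stood at 66.2, 69.6 and 69.4 CPM (reads of a gene scaled to the size of its library) in the controls and at 46.2, 58.3 and 48.9 CPM with hairpins 1, 2 and 5, below each control with every hairpin. Its log2 fold change was -0.42 ± 0.10 (SE) with an adjusted p of 0.0999 over all tested genes (edgeR quasi-likelihood test, Benjamini-Hochberg adjustment), which missed the threshold of 0.05. DESeq2 (adjusted p = 0.0148), limma-voom (adjusted p = 0.0153) and edgeR without hairpin 2 (adjusted p = 0.0478) called it lower. The neuroendocrine marker list had reads for 8 of 8 genes, with summed levels of 6778 to 7835 CPM in controls, against 5577 to 7423 CPM with hairpins. Its members differed in direction: Calca stood below the controls with each hairpin (1803 ± 209 and 875 ± 267 CPM, edgeR adjusted p = 0.0558) and Ncam1 above them (193 ± 21.5 and 309 ± 85.2 CPM, adjusted p = 0.116). DESeq2 and limma-voom each called 1 of the 8 lower and 1 higher. The 5 epithelial markers (Epcam, Krt8, Krt18, Cdh1, Cldn7) summed to 2357 to 2942 CPM in controls, against 1104 to 1568 CPM with hairpins, and 4 of the 5 passed the test as lower. The endothelial, leukocyte, erythroid, and club and alveolar lists summed to under 10 CPM in every library, and Emcn and Scgb3a2 had no read. The fibroblast list summed to 37.2 to 45.2 CPM in controls, against 12.9 to 63.2 CPM with hairpins, nearly all of it Dcn, while Col3a1 had no read.

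In control cells the Rab genes spanned a wide range of levels. Levels are compared between genes as CPM per kilobase of exon, using exon lengths of a later annotation than the authors' (GENCODE M21), so that lengths are approximate. Rab2a, which acts between the endoplasmic reticulum (ER) and the Golgi, was the highest at 139 ± 4.49 CPM per kilobase (SD, n = 3). Rab5c, of the early endosome, came next at 102 ± 3.86. Rab6a of the Golgi (58.6 ± 1.77), Rab3c of secretory vesicles (58.1 ± 4.54), Rab11a of recycling endosomes (57.8 ± 2.86) and Rab10 of polarised transport (57.7 ± 2.02) followed and did not differ beyond their spread. Rab1 (Rab1a in RefSeq) at 50.0 ± 1.25, Rab1b at 40.2 ± 1.88, Rab24 at 35.0 ± 0.367 and Rab3a at 31.6 ± 6.03 completed the 10 highest, and of these neighbours only Rab24 and Rab3a overlapped. The 10 highest genes held 56.9% of the summed level of the 57. In that annotation 1258 of the 2015 exonic bases of Rab24 are shared with Prelid1. For Rab6a, 708 of 3728 are shared with Mrpl48. The levels and places of both, Rab24 most, are therefore uncertain beyond their SD. With the longest transcript as the length, Rab3c (82.9) stood above Rab11a (74.0) and Rab6a (68.0).

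**Figure D1:**
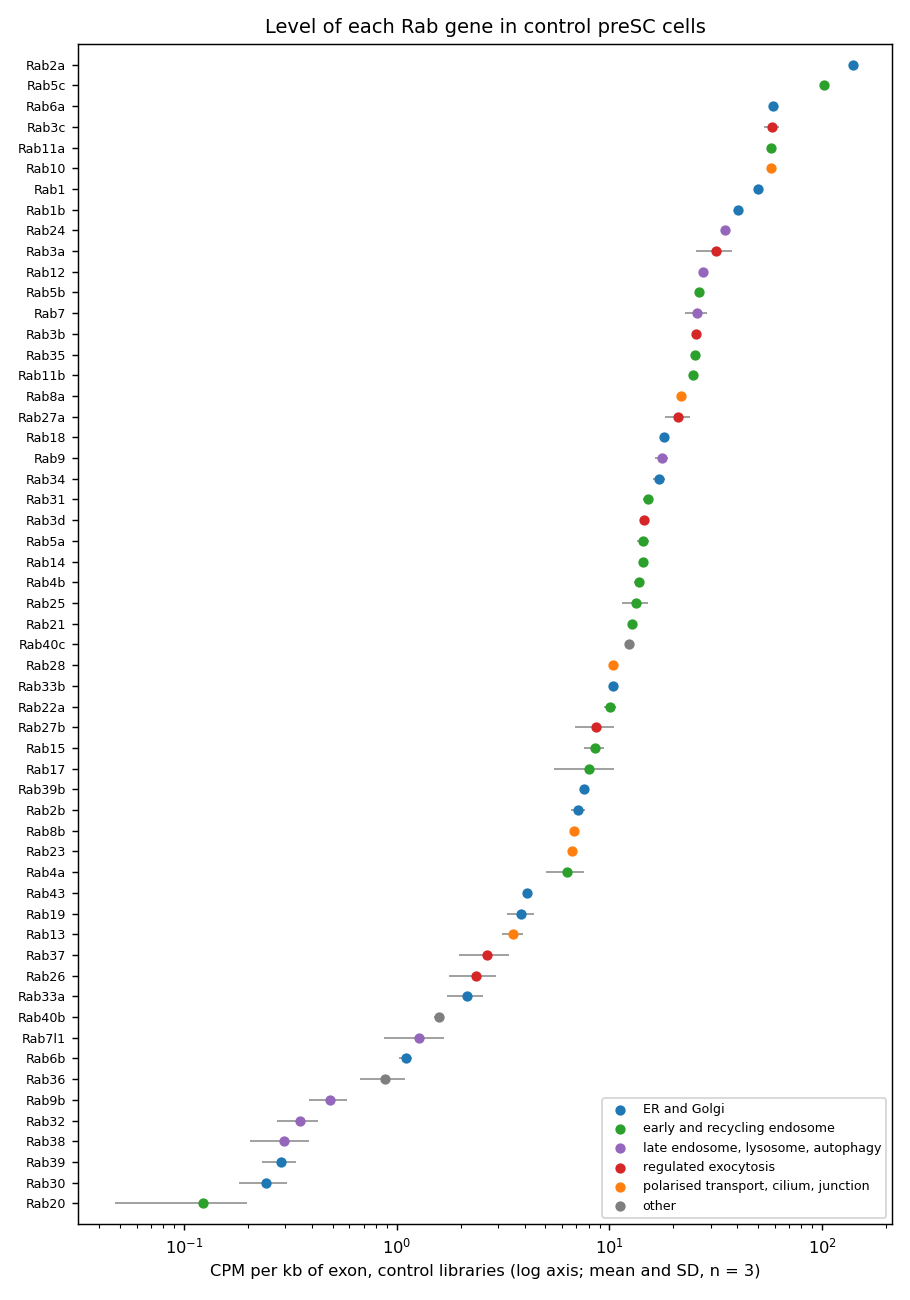
Control level of each Rab gene as CPM per kilobase of exon on a log axis (points: mean of the 3 control libraries; bars: SD; colours: compartment). Rab2a and Rab5c lead at 139 and 102, and Rab26 (2.35) and Rab6b (1.11) sit in the lower part (Rab44, with no read, is not drawn).

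At the low end 3 members did not pass the filter on low counts and were not tested. Rab44 had no read in any library, which allows a level of up to 0.153 to 0.220 CPM per library (a limit of 3 reads, for counting error only). Rab20, a Rab of phagosomes, had between 1 and 6 reads per library, and Rab38, which serves melanosomes, had between 5 and 10. The other 54 members were tested, with Rab30 the lowest of them at 0.244 ± 0.0616 CPM per kilobase in controls.

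The summed level of the Rab genes did not separate the groups. It was 4382, 4239 and 4204 CPM in the controls, against 4277, 4263 and 4415 CPM with hairpins 1, 2 and 5. Of the 54 tested members 3 passed an adjusted p of 0.05. Rab25 and Rab26 were lower with the hairpins and Rab6b was higher. Over all 13390 tested genes, 0.978% were called lower and 0.276% higher, 1.25% in all, against 5.56% of the Rab genes, a share that rests on 3 genes. DESeq2 called 7 of 56 Rab genes (12.5%, against 4.07% of all genes) and limma-voom with quality weights 8 of 54 (14.8%, against 5.18%). The DESeq2 share of all genes is over 18097 genes with any read, including genes of few reads, which may lower it. The other 2 tools used the 13390 filtered genes, so the bases differ. The family was chosen with earlier results on these 3 genes known, so these shares are a description and no independent evidence. Of the Rab genes 37 had positive and 17 negative fold changes (68.5% positive, against 53.2% of all tested genes), and their median log2 fold change was 0.05 (0.01 over all genes tested). The median size of the change was 0.14 on the log2 scale both for the Rab genes and for all genes. All 3 hairpin libraries lay below all controls for 2 members (3.70%, against 11.0% of all tested genes) and above them for 11 members (20.4%, against 11.4%). At an unadjusted p under 0.05, 2 of the 54 members were lower and 7 higher. Over all tested genes 8.46% were lower and 7.99% higher at that limit, so the Rab share was smaller for lower and larger for higher genes. Scaling by RLE or upper quartile factors left 37 and 38 members positive. Without control replicate 1, 2 or 3, 37, 36 and 34 of the 54 were positive. Without hairpin 1, 2 or 5 the numbers were 34, 34 and 30. The excess of positive fold changes thus varied with the libraries used.

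**Figure D2:**
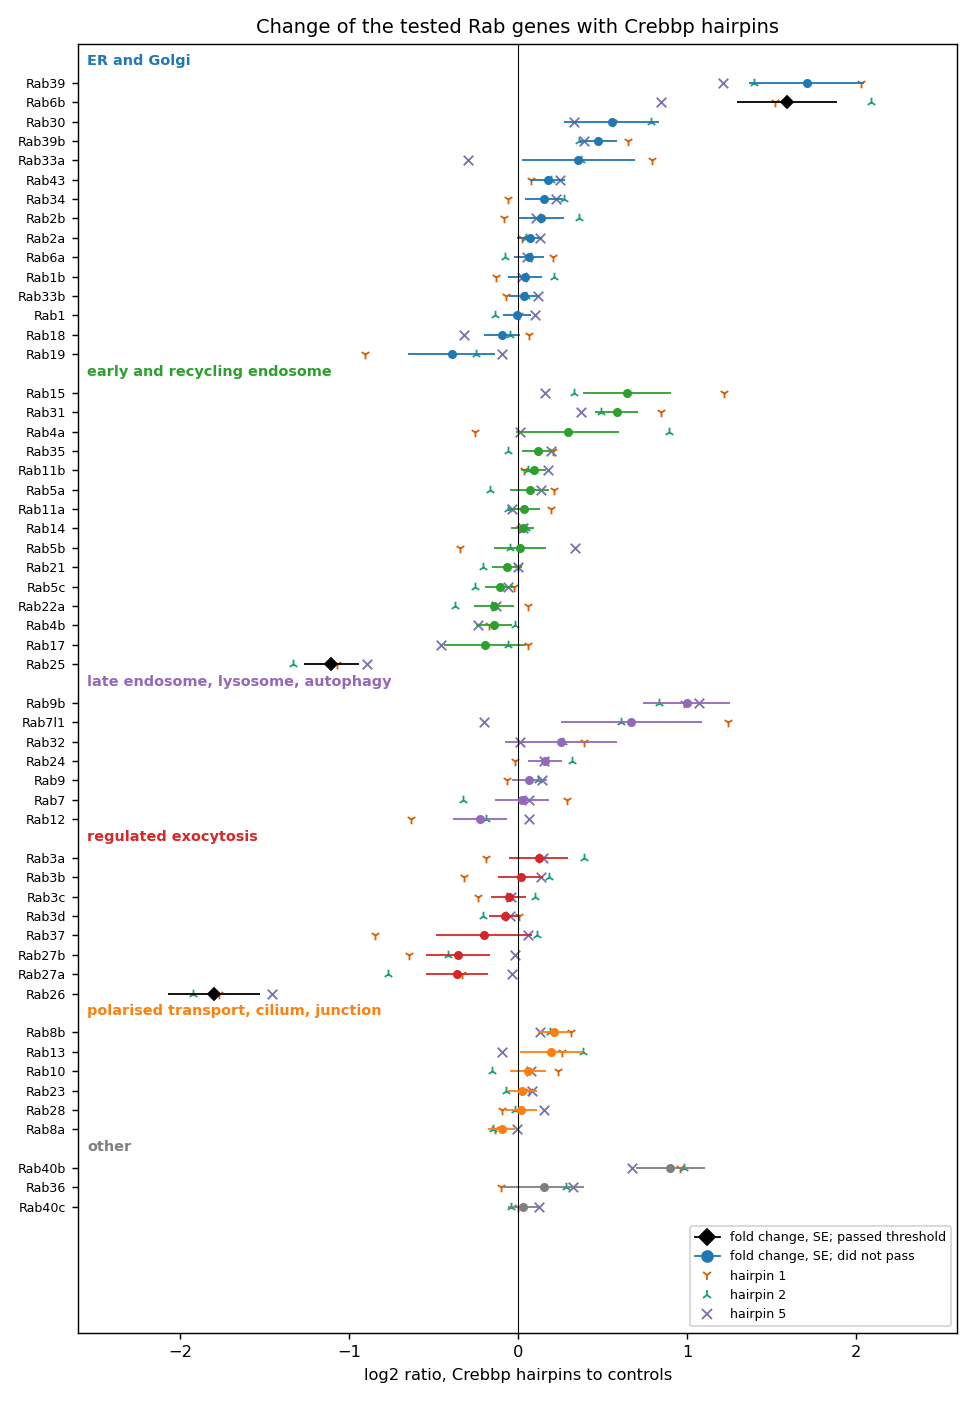
Log2 ratio of Crebbp hairpins to controls for the 54 tested Rab genes, ordered by compartment (circles and diamonds: fitted log2 fold change with SE; small marks: each hairpin library against the mean of the controls). Only Rab25, Rab26 and Rab6b, drawn as black diamonds, passed the threshold, at -1.10, -1.80 and 1.59.

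The Rab genes of regulated exocytosis were led in change by Rab26, which acts in the maturation of secretory granules. The level of Rab26 was 8.38, 6.71 and 5.04 CPM in control replicates 1, 2 and 3, compared with 1.84, 1.64 and 2.31 CPM with hairpins 1, 2 and 5. Every hairpin library lay below every control, and the shNS library was the lowest control. Rab26 fell 3.47-fold (log2 fold change -1.80 ± 0.27, edgeR adjusted p = 0.0277), from a mean of 6.71 ± 1.67 to 1.93 ± 0.347 CPM (SD, n = 3 each). The gene had 69 to 164 reads per control library and 23 to 34 per hairpin library. DESeq2 called it lower as well (adjusted p = 9.80e-06). In edgeR it did not pass without control replicate 1, 2 or 3 (adjusted p = 0.157, 0.187 and 0.0512) or without hairpin 2 (adjusted p = 0.0569), with log2 fold changes between -1.96 and -1.60 over all alternatives. In the later annotation 267 exonic bases of Rab26 are shared with Traf7 on the same strand. Traf7 stood at 96.4 ± 3.14 and 90.8 ± 4.37 CPM in controls and hairpins (log2 fold change -0.09, adjusted p = 0.653).

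No other gene of regulated exocytosis passed, so the list had 1 of 8 tested members lower and 0 higher by edgeR, DESeq2 and limma-voom alike. Rab37, the closest relative of Rab26 and like it a Rab of secretory granules, stood at 17.8, 14.3 and 10.4 CPM in the controls. It stood at 7.64, 15.0 and 14.4 CPM with hairpins 1, 2 and 5, low with hairpin 1 only (log2 fold change -0.20 ± 0.28, adjusted p = 0.793). Rab26 therefore made up 47.0 ± 0.512% of the per-kilobase level of the pair in controls and 23.7 ± 7.02% with hairpins, where the shares were 31.0%, 17.0% and 23.1%.

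The Rab3 genes, which tether synaptic and dense-core vesicles before release, kept overlapping groups. Rab3c was the most abundant, at 761, 683 and 656 CPM in controls, against 593, 750 and 679 CPM with hairpins (log2 fold change -0.06 ± 0.11, adjusted p = 0.858). Rab3b stood at 91.0, 93.0 and 86.9 CPM in controls, against 72.3, 102 and 99.2 CPM with hairpins. Its hairpin 1 library was the lowest and its other hairpin libraries were the highest of the 6, around a log2 fold change of 0.02 ± 0.13 (adjusted p = 0.971). Rab3a stood at 70.4 ± 13.4 and 76.5 ± 15.0 CPM and Rab3d at 61.4 ± 2.09 and 58.1 ± 4.37 CPM in controls and hairpins (adjusted p = 0.800 and 0.736). Per kilobase, Rab3c made up 44.7 ± 3.72% of the Rab3 level in controls and 43.1 ± 0.880% with hairpins, and Rab3b 19.7 ± 0.869% and 19.8 ± 1.40%.

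Rab27a and Rab27b, which anchor secretory vesicles to the actin cortex, had lower means with hairpins but overlapped the controls. Rab27a stood at 91.6, 84.8 and 69.5 CPM in controls, against 64.7, 47.7 and 79.4 CPM with hairpins 1, 2 and 5. Rab27b stood at 114, 87.7 and 76.9 CPM in controls, against 58.5, 68.9 and 90.5 CPM with hairpins. Hairpin 5 lay within the control range for both genes. Their log2 fold changes were each -0.36, with SE of 0.18 and 0.19 (adjusted p = 0.382 and 0.401).

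Among the Rab genes of early and recycling endosomes, Rab25 was the 1 called member. Rab25, an epithelial member of the Rab11 subfamily, directs recycling to the apical surface and traffics integrins. Its level was 20.6, 20.3 and 25.8 CPM in control replicates 1, 2 and 3, compared with 10.4, 8.69 and 11.8 CPM with hairpins 1, 2 and 5. No hairpin library reached the control range, and the shNS library was the highest control. Rab25 fell 2.15-fold (log2 fold change -1.10 ± 0.16, edgeR adjusted p = 0.0266), from 22.2 ± 3.06 to 10.3 ± 1.58 CPM. DESeq2 called it too (adjusted p = 1.65e-06), and edgeR kept the call without any 1 hairpin. Without control replicate 1, 2 or 3 it did not pass (adjusted p = 0.143, 0.134 and 0.0932). The summed epithelial markers given above were lower in the same 3 hairpin libraries, in which Rab26 also fell and Rab6b rose, and their part in these results was not tested. In bulk RNA, fewer cells that express a gene and less RNA per cell cannot be told apart.

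The other Rab11 subfamily genes did not pass. Rab11a stood at 173 ± 8.57 CPM in controls, against 178 ± 17.6 CPM with hairpins (adjusted p = 0.898). Rab11b stood at 152 ± 1.33 and 162 ± 8.44 CPM (log2 fold change 0.09 ± 0.08, adjusted p = 0.609), with each hairpin library above each control. Per kilobase, Rab25 made up 12.6%, 13.0% and 16.0% of the subfamily in the controls and 6.38%, 6.01% and 7.73% with hairpins 1, 2 and 5.

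**Figure D3:**
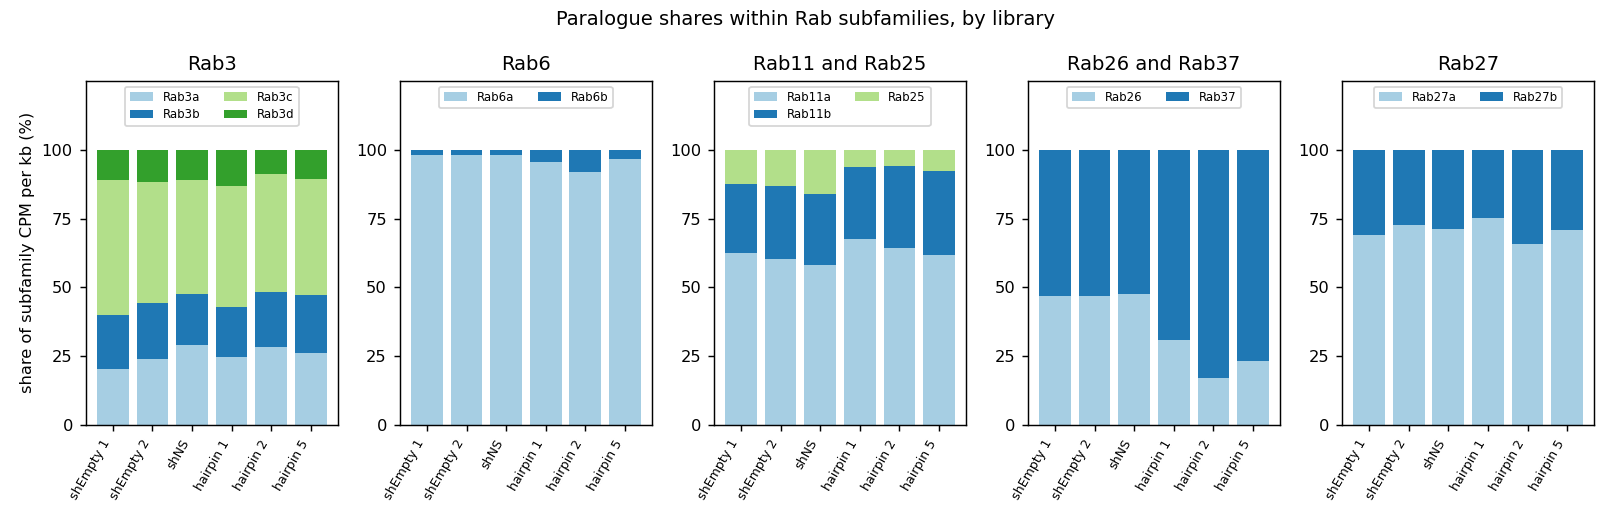
Share of each paralogue in the summed CPM per kilobase of its subfamily (bars stacked to 100%), for each of the 6 libraries. The Rab25 and Rab26 segments are smaller with each hairpin than in any control, the Rab6b segment is larger, and the Rab3 and Rab27 shares overlap between groups.

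In the rest of this list, Rab31, which works between the trans-Golgi and endosomes, stood at 55.1, 57.2 and 61.1 CPM in controls, against 104, 81.4 and 74.9 CPM with hairpins 1, 2 and 5. All hairpin libraries lay above the controls, hairpin 1 most. The log2 fold change was 0.58 ± 0.13 and did not pass in edgeR (adjusted p = 0.0769), but DESeq2 (adjusted p = 0.00383) and limma-voom (adjusted p = 0.0183) called it. So did edgeR when hairpin 1 or 5 was left out (adjusted p = 0.0487 and 0.0435). Rab15, an endosomal recycling Rab of neural cells, stood at 35.1, 39.5 and 43.6 CPM in controls. With hairpins 1, 2 and 5 it stood at 91.8, 49.4 and 43.8 CPM, so that hairpin 1 was high and hairpin 5 was at the level of the highest control (adjusted p = 0.266). Of the 15 tested genes of this list 9 had positive and 6 negative fold changes.

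The Rab genes of the ER and Golgi had 1 of 15 tested members called higher and 0 lower. Of the 15, 12 had positive fold changes (80.0%, against 53.2% of all tested genes). This lean was not particular to the ER and Golgi list. Positive fold changes were held by 6 of 7 late endosome genes, 5 of 6 of polarised transport and 3 of 3 outside the named compartments. They were held by 9 of 15 genes of early and recycling endosomes and by 2 of 8 of regulated exocytosis. The summed level of the ER and Golgi genes was 1079 to 1103 CPM in controls, against 1135 to 1155 CPM with hairpins, so the groups did not overlap. The abundant members Rab2a, Rab6a and Rab1 each overlapped between the groups. Among all tested genes 11.4% lay above all controls with every hairpin. The sums overlapped for regulated exocytosis (1049 to 1203 CPM, against 921 to 1130 CPM), early and recycling endosomes (1306 to 1320 CPM, against 1271 to 1424 CPM), late endosomes (250 to 262 CPM, against 245 to 276 CPM) and polarised transport (441 to 453 CPM, against 420 to 483 CPM). They did not for the genes outside these compartments (45.7 to 47.8 CPM, against 49.4 to 53.5 CPM). The called gene was Rab6b, the brain-enriched relative of Rab6a in transport at the Golgi. Rab6b had 5.16, 5.97 and 5.55 CPM in control replicates 1, 2 and 3, compared with 16.2, 24.1 and 10.1 CPM with hairpins 1, 2 and 5. The controls lay close together while the hairpin libraries spread, with hairpin 5 nearest the controls. Rab6b rose 3.01-fold (log2 fold change 1.59 ± 0.30), from 5.56 ± 0.408 to 16.8 ± 7.02 CPM. Its edgeR adjusted p of 0.0497 was at the threshold: it was 0.0506 with RLE size factors, 0.0651 without hairpin 2, and 0.259, 0.232 and 0.162 without control replicates 1, 2 and 3. DESeq2 gave an adjusted p of 3.12e-05. Rab6a, far more abundant, stood at 218 ± 6.60 and 229 ± 22.3 CPM (adjusted p = 0.790). In the later annotation Rab6a shares 708 exonic bases with Mrpl48 on the opposite strand, and their reads there cannot be told apart. The per-kilobase share of Rab6b in the sum of Rab6a and Rab6b was between 1.72% and 2.05% in the controls and 4.54%, 7.92% and 3.19% with hairpins.

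Rab39 and Rab39b, which act in Golgi and endosomal traffic, were close to the threshold and above the controls in each hairpin library. Rab39 was near the detection limit, at 0.920, 0.671 and 0.949 CPM (11 to 18 reads) in controls, against 3.82, 2.42 and 2.11 CPM (31 to 52 reads) with hairpins. Its log2 fold change was 1.71 ± 0.34 (edgeR adjusted p = 0.0602). The gene passed under DESeq2 (adjusted p = 0.00818), under limma-voom (adjusted p = 0.0138), in edgeR without a filter (adjusted p = 0.0498) and without hairpin 5 (adjusted p = 0.0454). Rab39b stood at 25.4, 25.5 and 26.3 CPM in controls, against 40.6, 33.1 and 33.8 CPM with hairpins (log2 fold change 0.48 ± 0.11, edgeR adjusted p = 0.0841). DESeq2 (adjusted p = 0.0189) and limma-voom (adjusted p = 0.0259) both called it. In the later annotation Rab39b shares 634 exonic bases with the antisense gene Gm15063, as Rab3b shares 317 with 8030443G20Rik, and their reads cannot be told apart. Rab30, another Golgi Rab, stood at 2.35 ± 0.594 and 3.48 ± 0.567 CPM (adjusted p = 0.379). The abundant Rab2a (296 ± 9.58 and 311 ± 11.6 CPM) and Rab1 (190 ± 4.75 and 189 ± 15.5 CPM) had adjusted p of 0.716 and 0.982, and Rab1b one of 0.895.

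**Figure D4:**
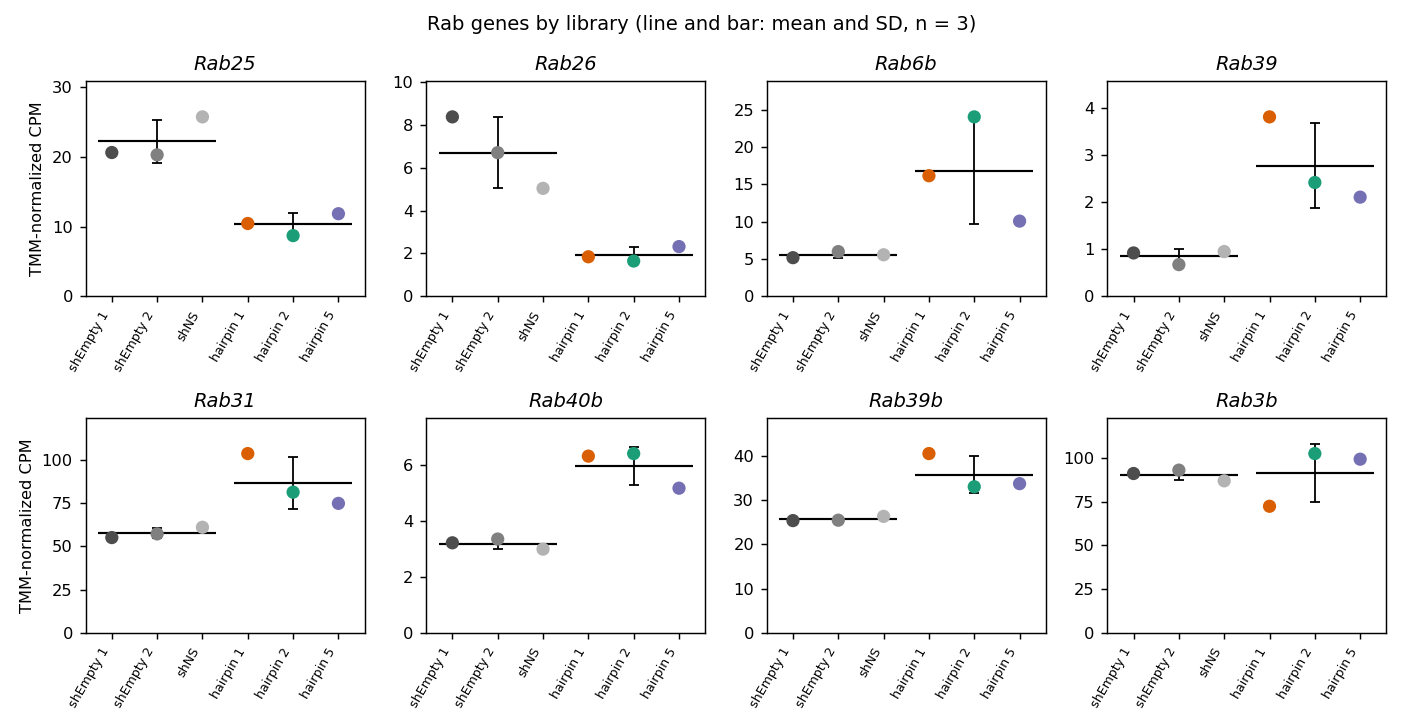
TMM-normalized CPM of 8 Rab genes in each library (points), with group mean (line) and SD (bar), n = 3 per group and each vertical axis starting at 0. Rab25 and Rab26 lie lower with each hairpin than in any control, the 5 genes from Rab6b to Rab39b lie higher, and Rab3b overlaps.

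Late endosome, lysosome and autophagy Rab genes had 0 of 7 tested members called in edgeR (at an unadjusted p under 0.05, 0 were lower and 1 higher) and 0 in DESeq2, while limma-voom with quality weights called 1 higher. That gene, Rab9b, a relative of the late endosomal Rab9, stood at 1.48, 2.19 and 2.12 CPM in controls, against 3.89, 3.49 and 4.15 CPM with hairpins. All hairpin libraries lay above the controls (means of 1.93 ± 0.391 and 3.85 ± 0.333 CPM, edgeR adjusted p = 0.108, limma-voom adjusted p = 0.0481). Rab24, an autophagy Rab that shares 1258 exonic bases with Prelid1 in the later annotation, stood at 70.5 ± 0.740 and 78.7 ± 9.16 CPM (edgeR adjusted p = 0.482). Rab12, which sends receptors to lysosomes, stood at 53.6 CPM with hairpin 1, 72.9 with hairpin 2 and 87.2 with hairpin 5, against 82.1 to 84.0 CPM in controls.

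The Rab genes of polarised transport, cilia and junctions had 0 of 6 called by edgeR, DESeq2 or limma-voom, and none had an unadjusted p under 0.05. Rab8b, which brings cargo to the plasma membrane, stood at 32.2 ± 1.12 and 37.3 ± 2.50 CPM (log2 fold change 0.21 ± 0.09, adjusted p = 0.304), above the controls with each hairpin. Rab10, which acts in basolateral delivery, stood at 203 ± 7.11 and 211 ± 28.2 CPM (adjusted p = 0.841). Outside these compartments 0 of 3 tested genes were called in edgeR (1 was higher at an unadjusted p under 0.05), and DESeq2 and limma-voom each called 1 higher. That gene, Rab40b, which joins a Rab domain to a SOCS box of ubiquitin ligases, stood at 3.22, 3.35 and 2.99 CPM in controls, against 6.32, 6.41 and 5.17 CPM with hairpins. The groups did not overlap, and the log2 fold change of 0.90 ± 0.20 did not pass in edgeR (adjusted p = 0.0824) but passed in DESeq2 (adjusted p = 0.0195) and limma-voom (adjusted p = 0.0436).

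The 3 hairpins differed in how many Rab genes moved away from the controls. A log2 ratio of at least 0.5 above the control mean was seen in 10, 7 and 4 of the 54 tested members with hairpins 1, 2 and 5, and at least 0.5 below it in 6, 3 and 2. Over all tested genes the shares were 8.66%, 10.2% and 4.44% above and 12.2%, 8.92% and 7.26% below. No control library had a Rab gene that far from the control mean, but that mean includes the library itself, which makes its distance smaller. In the fit of shNS against shEmpty given below, differences past 0.5 in size were seen for Rab17 (-0.76), Rab7l1 (0.73) and Rab30 (-0.68). They were also seen for Rab37 (-0.64), Rab36 (-0.62) and Rab26 (-0.58). In 36 of the 54 members no hairpin library was 0.5 or more away from the control mean, with no share over all tested genes to set beside it. With 1 library per hairpin the differences between hairpins could not be tested. The 3 called genes, Rab25, Rab26 and Rab6b, changed most with hairpin 2, which lowered Crebbp least. Whether the Rab changes follow the size of the knockdown was not tested. Rab25 and Rab26 were the only members at least 0.5 below the control mean with every hairpin, and Rab6b, Rab39, Rab40b and Rab9b the only ones above. The share of all tested genes that did so with every hairpin is not given here, so these names do not set the Rab genes apart.

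The control vectors were set against each other in a fit with 3 groups that assumes the single shNS library to vary like the others. Its estimate of spread is shared with the hairpin libraries, which differed more among themselves than the controls did. Few calls were therefore possible, and a lack of calls does not show that the control vectors agree. Of the 54 Rab genes 0 were called by edgeR or DESeq2, as were 0% of all 14020 genes tested, and 1 Rab gene of the 54 had an unadjusted p under 0.05, as had 111 of all genes (0.792%). That gene was Rab17, an epithelial Rab, with a log2 difference of -0.76 ± 0.30 for shNS minus shEmpty (adjusted p = 1). The same differences were -0.58 ± 0.37 for Rab26 and 0.33 ± 0.23 for Rab25. The median size was 0.10 on the log2 scale over the Rab genes and 0.12 over all genes.

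Regulators and effectors of Rab proteins gave no call in the edgeR test. Of 129 tested genes on 4 lists 0 were lower and 0 higher (1.25% of all tested genes were called). At an unadjusted p under 0.05, 10 of the 129 were lower and 11 higher, near the shares of all tested genes (8.46% lower and 7.99% higher). DESeq2 gave 3 lower and 2 higher calls among 135 genes (3.70%, against 4.07% of all genes), and limma-voom gave 1 lower and 4 higher among the 129 (3.88%, against 5.18%), shares near those of all genes. The DESeq2 share of all genes again includes genes of few reads, which may lower it. The median log2 fold change of these genes was 0.03. All hairpin libraries lay below the controls for 10 of them (7.75%, against 11.0% of all tested genes) and above for 21 (16.3%, against 11.4%).

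The effector closest to the threshold was Myo5b, the myosin motor that Rab11 members and Rab25 recruit to recycling endosomes. Myo5b stood at 55.5, 55.5 and 48.7 CPM in controls, against 35.9, 25.6 and 35.3 CPM with hairpins 1, 2 and 5. The groups did not overlap, and the log2 fold change of -0.72 ± 0.14 had an edgeR adjusted p of 0.0552. It passed under DESeq2 (adjusted p = 0.000601), under limma-voom (adjusted p = 0.00865), with upper quartile factors (adjusted p = 0.0439), without a filter (adjusted p = 0.0286) and without hairpin 1 (adjusted p = 0.0373). Rab11fip2, an adaptor between Rab11 and Myo5b, stood at 17.5 ± 0.552 and 24.1 ± 1.52 CPM (log2 fold change 0.46 ± 0.11, adjusted p = 0.0877). DESeq2 (adjusted p = 0.0267) and limma-voom (adjusted p = 0.0466) both called it. Over the list 0 of 51 tested effectors were called in edgeR.

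Exchange factors had 0 of 32 and GTPase-activating proteins 0 of 38 tested members called in edgeR. The lowest p among exchange factors belonged to St5 (34.1 ± 1.91 and 25.2 ± 3.07 CPM, adjusted p = 0.121, DESeq2 0.0486) and to Dennd1a, an activator of Rab35 (28.2 ± 2.63 and 38.1 ± 5.16 CPM, adjusted p = 0.141, limma-voom 0.0466). Among GTPase-activating proteins they were Sgsm1 (73.7 ± 9.95 and 52.8 ± 8.73 CPM, adjusted p = 0.160) and Sgsm2 (46.5 ± 2.66 and 39.6 ± 2.44 CPM, adjusted p = 0.269). Of the genes for carriers, escort proteins and prenylation enzymes 0 of 8 were called by edgeR, DESeq2 or limma-voom, and none had an unadjusted p under 0.05. Rabggta, a subunit of the enzyme that prenylates Rab proteins, stood at 28.7 ± 2.51 and 25.8 ± 0.673 CPM (edgeR adjusted p = 0.530). Rab3il1, the member of the name rule that encodes an exchange factor, stood at 2.20 ± 0.111 and 3.63 ± 1.08 CPM (adjusted p = 0.252).

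Promoter windows were read for 47 of the 57 Rab genes (RefSeq, build GRCm38.p6; 250 bases before and 50 after the start). They were searched on both strands for TGACGTCA, the cAMP response element bound by CREB, the factor after which CREB-binding protein is named, and for the shorter core TGACG. Each TGACGTCA holds that core on both strands. Rab26 was not among the genes searched. TGACGTCA was present in windows of 2 of the 47 genes (4.26%), Rab25 and Rab5a, against 2.03% of 27025 genes with a window and 3.83% of the 9505 tested genes with one. The shorter core was present in 26 (55.3%), against 23.0% and 35.3%. The median GC content of the windows was 61.3% for Rab genes, 61.0% for tested genes and 52.7% for all genes. The Rab25 and Rab5a windows are shown because they alone hold the full element, and the Rab6b window because that gene was called higher and holds neither. Printed are the 250 bases before the start, 5′ to 3′ on the strand of the gene, with every match of either motif on either strand in capitals. The positions are chr3:88548280-88548529 (minus strand) for Rab25, chr17:53478984-53479233 (plus strand) for Rab5a and chr9:103111824-103112073 (plus strand) for Rab6b.
Rab25: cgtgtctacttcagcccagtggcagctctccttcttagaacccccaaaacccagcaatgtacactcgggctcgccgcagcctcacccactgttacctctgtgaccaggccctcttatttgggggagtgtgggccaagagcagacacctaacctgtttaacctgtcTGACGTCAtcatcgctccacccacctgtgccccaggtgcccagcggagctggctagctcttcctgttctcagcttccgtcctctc
Rab5a: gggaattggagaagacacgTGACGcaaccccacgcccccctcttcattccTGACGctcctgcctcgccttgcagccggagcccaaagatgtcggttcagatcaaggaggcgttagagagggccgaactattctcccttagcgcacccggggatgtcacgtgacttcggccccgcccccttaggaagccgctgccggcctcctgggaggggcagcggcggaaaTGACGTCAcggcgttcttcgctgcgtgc
Rab6b: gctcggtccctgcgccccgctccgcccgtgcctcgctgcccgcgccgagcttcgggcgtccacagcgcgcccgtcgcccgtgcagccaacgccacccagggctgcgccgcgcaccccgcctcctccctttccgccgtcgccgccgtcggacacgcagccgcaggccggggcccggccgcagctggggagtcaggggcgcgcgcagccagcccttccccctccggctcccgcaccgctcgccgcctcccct
The element begins 85 bases before the start in Rab25 and 28 bases before it in Rab5a. Rab5a, of the early endosome, stood at 79.4, 70.2 and 78.6 CPM in controls, against 87.9, 67.8 and 83.6 CPM with hairpins, with overlapping groups (log2 fold change 0.07 ± 0.11, edgeR adjusted p = 0.830). Of the 2 genes with the full element, Rab25 was called lower and Rab5a was not called, and the difference between them was not tested. A match of letters is a description of the window and shows no binding.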

How the data were processed

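Poly(A) RNA of preSC cells was sequenced in 6 libraries, 3 per group. Each deposited file gives whole-number read counts by gene symbol for 1 library, which the authors neither normalized nor pooled. Tools listed in the submitters' processing notes are TopHat2 2.0.12, HTSeq 0.6.1 and bcl2fastq 1.8.2, with build mm9. The annotation and strand setting were not given in these sources. The kit named in the labels does not mark strand, so that reads of overlapping antisense genes cannot be told apart. Close paralogues and genes with pseudogene copies are uncertain, since HTSeq sets aside reads that align to several places. The 5 HTSeq summary rows (24.8% to 28.9% of counts) were left out. Within groups, libraries differed beyond sampling noise. The chi-square statistic over its degrees of freedom was 4.25 to 11.5 between controls and 21.5 to 29.9 between hairpin libraries.

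Counts were tested over all 13390 genes that passed filterByExpr with edgeR 4.0.16 in R 4.3.3 (TMM, robust quasi-likelihood test, group as the only term), with Benjamini-Hochberg adjusted p under 0.05 as the threshold. CPM are TMM-normalized. Ratios per library use log2 CPM with a prior count of 2. Each SE is the fold change divided by the root of its F statistic. DESeq2 1.42.0, limma-voom (limma 3.58.1) with sample quality weights, RLE and upper quartile factors, other filters, non-robust estimation and leaving out each library were the alternatives. The scripts were tested on simulated data. Members, lists and tests were chosen with earlier results of these data known. Named were Crebbp, called members, Rab26, Rab6b, Rab25 and Rab3b, the 10 highest members, the 10 uncalled members of smallest p, paralogues of these, untested members, and the regulators of smallest p in each list. Rab12, Rab17, Rab36, Rab5a, Rab7l1 and Traf7, and Calca and Ncam1 among the markers, were chosen after their values were seen. 1 regulator that this rule names is not reported here. Protein sequences were not analysed here. Counts without molecular identifiers give limits that cover counting error only.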

Additional observations from a re-analysis of the deposited data

How the results depend on the processing

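Over all genes edgeR called 168, DESeq2 736 and limma-voom with quality weights 694, and edgeR with 1 library left out called 0 to 389. Rab genes called lower numbered 2 with all 6 libraries under each tool, scaling and filter tried, Rab25 and Rab26 each time, and 0 to 2 with 1 library left out. Rab genes called higher numbered 1, and 5 with DESeq2, 6 with limma-voom, 0 with RLE factors, 2 without a filter and 0 to 3 with 1 library left out. Regulators and effectors called lower numbered 0, and 3 with DESeq2, 1 each with limma-voom, upper quartile factors and no filter, and 0 to 2 with 1 library left out. Those called higher numbered 0, and 2 with DESeq2, 4 with limma-voom and 0 to 1 with 1 library left out. The cause of these differences was not tested. Leaving out control replicate 1 or 2 removed every call over all genes in edgeR, where 1332 and 1238 genes had an unadjusted p under 0.05. Without control replicate 3 edgeR called 48 genes, and without hairpin 1, 2 or 5 it called 368, 101 and 389. Rab25, Rab26 and Rab6b kept their sign in each of 13 alternatives, which the separation of their groups fixed in advance. The shNS comparison gave 0 calls with edgeR, DESeq2 and RLE factors. No paired analysis was possible because 2 is the one number that the labels give in both groups, control numbers 1 and 3 being given here only as names, and hairpin numbers name hairpins. With 23 to 34 reads per hairpin library for Rab26 and 11 to 18 per control library for Rab39, counting error limits both.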

Other observations

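The effectors named here were chosen after their values were seen. Rab11fip5, a Rab11 effector, stood at 1.07, 1.04 and 1.75 CPM in controls, against 4.26, 6.55 and 2.31 CPM with hairpins 1, 2 and 5 (log2 fold change 1.77 ± 0.43, edgeR adjusted p = 0.0948). DESeq2, limma-voom and edgeR without hairpin 5 called it higher. Rab11fip1, which binds Rab25 as well as Rab11, stood at 16.8 ± 1.81 CPM in controls, against 13.2 ± 2.01 CPM with hairpins, with overlapping groups (adjusted p = 0.308). Rab11fip3 and Rab11fip4 overlapped between the groups as well (adjusted p = 0.721 and 0.631). Bicd1, a dynein adaptor recruited by Rab6, stood at 16.5 ± 0.933 and 22.2 ± 2.48 CPM (log2 fold change 0.43 ± 0.12, adjusted p = 0.146), above the controls with each hairpin. Kif20a, a mitotic kinesin that was described as a Rab6 partner, stood at 188 ± 23.4 and 118 ± 29.3 CPM, below the controls with each hairpin (log2 fold change -0.67 ± 0.18, adjusted p = 0.119), and DESeq2 called it lower. Bicd2, Erc1, Gcc2, Ccdc64 and Golga5, further Golgi effectors on the list, overlapped between the groups (edgeR adjusted p = 0.936, 0.513, 0.744, 0.872 and 0.804).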
